A study of Homo sapiens with 4 samples.

Results

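The long noncoding RNAs (lncRNAs) that carry a LINC symbol followed by digits alone were followed through the polysome gradients of MDA-MB-231 cells, a mesenchymal triple-negative breast cancer line. A gene was taken when the deposited table classes it as lncRNA and when its mean over the libraries used was at least 1 FPKM (fragments mapped to a gene, scaled by transcript length and by library depth). Of 1739 LINC genes in the table, 417 were above 0 in at least 1 library, and 69 met the minimum, out of 10905 genes of all kinds that met it and 28198 in the table. These 69 RNAs were thus selected on their mean FPKM, which is not a result. An RNA that was abundant in a single fraction could pass through that fraction alone, so the counts and medians over the 69 RNAs are descriptions.

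The cells had been depleted of METTL3, the catalytic subunit of the nuclear m6A writer complex, and then infected with lentivirus to express either wild-type METTL3 (METTL3-WT) or METTL3-K177Q. In METTL3-K177Q lysine is replaced by glutamine as a mimic of acetylation. All 4 groups thus share the depletion and the lentiviral re-expression, and a group is a genotype in a gradient fraction, sub-polysome or polysome. After cycloheximide the lysates were spun through sucrose gradients, and fractions were pooled into sub-polysome (40S, 60S and 80S) and polysome before poly(A)-selected, directional RNA-seq. Each group had 1 library, in every case replicate 2, so no difference below has a replicate check here and no p-value is given. FPKM is relative to the depth of each library, so that a lower relative level and a smaller amount of RNA per cell cannot be told apart. It does not sum to the same total: 899550 in METTL3-WT sub-polysome, 818984 in METTL3-WT polysome, 1.04e+06 in METTL3-K177Q sub-polysome and 767949 in METTL3-K177Q polysome.

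Long intergenic noncoding RNAs are transcribed by RNA polymerase II, and most are spliced, capped and polyadenylated like mRNAs. Many stay in the nucleus or on chromatin, others reach the cytoplasm, and ribosomes can engage short open reading frames (ORFs) on the latter. A few RNAs first named LINC were later found to encode small proteins. In a sucrose gradient, an RNA bound by several ribosomes sediments with polysomes, and an RNA with none or a single ribosome stays in the lighter fractions.

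The identity of the samples was checked first. METTL3 was at 9.39 FPKM in METTL3-WT sub-polysome, 38.7 in METTL3-WT polysome, 5.07 in METTL3-K177Q sub-polysome and 29.5 in METTL3-K177Q polysome. These reads can come from the re-expressed construct, so they do not check the depletion. Among the genes fixed as marks of this line, VIM, the mesenchymal intermediate filament, was lowest in METTL3-WT sub-polysome, at 677 FPKM, and CD44, AXL, LGALS1 and MMP14 were each above 100 FPKM in every library. Of the 6 genes taken to be low or absent, the hormone receptor genes ESR1 and PGR were at most 0.0119 FPKM and KRT20 was listed at 0. The epithelial cadherin CDH1 was between 0.219 and 0.632 FPKM. ERBB2 was measurable, between 12.2 and 28.3 FPKM, as was EPCAM, between 6.20 and 9.91 FPKM.

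The word intergenic holds for most of the 69 RNAs but not for all. All of them were located in RefSeq on GRCh38.p14, 8 through an older symbol, and RefSeq classes all 69 as lncRNA. The interval of 12 overlapped that of a protein-coding gene on either strand, among them LINC01088 with NAA11, LINC00847 with ZFP62 and LINC01089 with SETD1B. The median distance of the other 57 from the nearest protein-coding gene was 18989 bp. Of the 57 with a strand in RefSeq, 5 had a protein-coding gene starting within 1000 bp on the opposite strand, as with LINC01137, 137 bp from ZC3H12A, and LINC02585, 882 bp from CELSR3. No RefSeq miRNA hairpin was found on the same strand inside a member with a strand in RefSeq. LINC00888, now named SNHG33 as a snoRNA host gene, was the only member with a snoRNA inside. A GENCODE 44 transcript with ends close to the RefSeq gene was found for 57 members (82.6%). Their median length was 1457 bases, from 196 for LINC02585 to 7914 for LINC02693, with a median of 3 exons. Their longest ATG-initiated ORF had a median of 86 codons, and in 21 of 57 it had at least 100 codons.

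For orientation, the longest ORFs of a few members are printed, since the gradient sorts RNAs by how many ribosomes they carry. LINC00467 and LINC00665 are shown whole because small proteins encoded by them are known, and LINC01088 because it had the lowest polysome to sub-polysome ratio averaged over the genotypes among members above 0 in every library. The start and stop codons are in capitals, all sequences are from GENCODE 44 transcripts on GRCh38, and a computed ORF does not show that it is translated. The ORF of LINC00467 has 93 codons before the stop and runs from base 184 to base 465 of an 807-base transcript, at chr1:211391640-211399385 on the plus strand with introns between. That of LINC00665 has 52 codons in a 1019-base transcript, at chr19:36331485-36331643 on the minus strand. That of LINC01088 has only 30 codons in a 1182-base transcript, at chr4:78971597-78971689 on the plus strand. This ORF lies upstream of the RefSeq interval of the gene, chr4:78971748-79308799, in a GENCODE transcript that starts earlier.
LINC00467: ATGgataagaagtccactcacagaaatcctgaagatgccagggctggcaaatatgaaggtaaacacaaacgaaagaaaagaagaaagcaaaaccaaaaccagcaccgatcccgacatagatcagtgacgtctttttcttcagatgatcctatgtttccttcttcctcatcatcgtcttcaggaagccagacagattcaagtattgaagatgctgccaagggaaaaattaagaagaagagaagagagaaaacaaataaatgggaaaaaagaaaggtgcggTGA
LINC00665: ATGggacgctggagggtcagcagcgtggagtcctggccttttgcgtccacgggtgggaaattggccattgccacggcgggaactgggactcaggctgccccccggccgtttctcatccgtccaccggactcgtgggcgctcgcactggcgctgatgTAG
LINC01088: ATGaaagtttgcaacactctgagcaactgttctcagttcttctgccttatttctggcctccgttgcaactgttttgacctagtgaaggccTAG

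For the members with the highest ratios, LINC00294 and LINC02693, the ORF is longer, and 60 bases around its start are shown, of which 12 lie before the ATG in capitals. The ORF has 109 codons in LINC00294, with the window at chr11:33076622-33076681 on the plus strand. It has 221 codons in LINC02693, with the window at chr17:21551375-21551434 on the minus strand.
LINC00294: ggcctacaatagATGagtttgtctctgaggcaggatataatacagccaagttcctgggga
LINC02693: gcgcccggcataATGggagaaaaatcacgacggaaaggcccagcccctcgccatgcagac

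The LINC RNAs were a small and uneven part of each library. Summed over the 69, they reached 466 FPKM in METTL3-WT sub-polysome, 119 in METTL3-WT polysome, 505 in METTL3-K177Q sub-polysome and 110 in METTL3-K177Q polysome. These are 0.0518%, 0.0146%, 0.0487% and 0.0144% of the FPKM of all genes in the same libraries. The sum was thus several-fold higher in either sub-polysome library than in either polysome library. The 5 members with the highest mean FPKM held 32.8%, 28.3%, 40.0% and 28.4% of these sums, in the same order of libraries. Their levels were low: 7 members had a mean of at least 10 FPKM, 32 were from 2 to 10 and 30 were below 2, and the median mean was 2.40 FPKM against 9.67 for all genes at the minimum. Just inside the minimum were LINC01833, LINC01638 and LINC00957, with means of 1.01, 1.02 and 1.04 FPKM. Just outside it were LINC00857, LINC00941 and LINC01389, with 0.992, 0.974 and 0.933 FPKM. In METTL3-WT sub-polysome 68 members were at 1 FPKM or more, in METTL3-K177Q sub-polysome 67, in METTL3-WT polysome 40 and in METTL3-K177Q polysome 34.

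**Figure D1:**
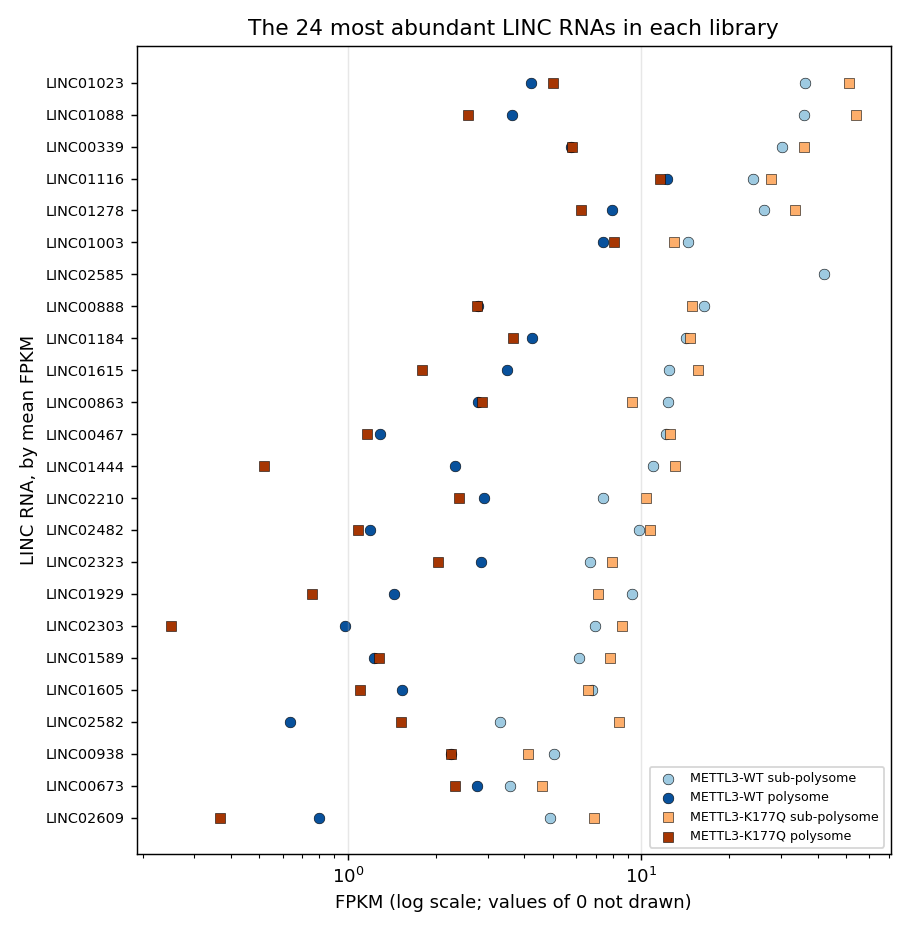
FPKM (log axis) of the 24 most abundant LINC RNAs in each of the 4 libraries, 1 point per library, with values of 0 not drawn. Sub-polysome points (light) lie to the right of polysome points (dark) of the same genotype in each row that has both, and LINC02585 has a single point, at 42.1 FPKM.

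The most abundant members were described next. LINC01023, near FER on chr5:108727825-108728261 (GRCh38.p14, minus strand), was at 36.4 FPKM in METTL3-WT sub-polysome, 4.22 in METTL3-WT polysome, 51.1 in METTL3-K177Q sub-polysome and 5.02 in METTL3-K177Q polysome. LINC01088 followed, with 36.0, 3.63, 54.2 and 2.57 FPKM in the same order of libraries. Both were high in the sub-polysome libraries and low in the polysome libraries, and in either genotype the levels of the 2 fractions lay far apart. LINC01023 was 8.45-fold lower in polysome than in sub-polysome in METTL3-WT cells and 9.99-fold lower in METTL3-K177Q cells, and LINC01088 was 9.67-fold and 20.3-fold lower. Each fold is of FPKM with a pseudocount of 0.1 added. LINC00339, a lncRNA beside CDC42 that is known to influence the expression of that gene, was at 30.1, 5.75, 35.9 and 5.82 FPKM. Most of its sequence is near-identical to that of another annotated gene, CDC42-AS1, so the split of reads between them is uncertain.

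Other abundant members were spread more evenly. LINC01116, on chr2:176611437-176637609 (minus strand) with MTX2 as its nearest protein-coding gene, was at 24.2 FPKM in METTL3-WT sub-polysome, 12.3 in METTL3-WT polysome, 27.7 in METTL3-K177Q sub-polysome and 11.6 in METTL3-K177Q polysome. LINC01003, a single-exon RNA near KMT2C, was at 14.4, 7.41, 13.0 and 8.10 FPKM. For both RNAs polysome values were nearer to sub-polysome values than for LINC01088, with LINC01116 1.96-fold and 2.37-fold lower in polysome in METTL3-WT and METTL3-K177Q cells, and LINC01003 1.93-fold and 1.60-fold lower. LINC01278, on the X chromosome, was at 26.3, 7.93, 33.4 and 6.24 FPKM. LINC00888, the snoRNA host, was at 16.4, 2.79, 14.9 and 2.76 FPKM. The plot of levels by library shows this order of fractions for the abundant members.

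LINC02585 stood apart from all others. It was at 42.1 FPKM in METTL3-WT sub-polysome, the highest value of any member in that library, and was listed at 0 in METTL3-WT polysome, METTL3-K177Q sub-polysome and METTL3-K177Q polysome. Its annotated transcript, of 196 bases, was the shortest among the 57 members with a matched transcript. Without it the members summed to 424 FPKM in METTL3-WT sub-polysome, or 0.0471% of the library. A further pair was listed at 0 in some library: LINC01063, at 0.700, 0, 4.20 and 0 FPKM, and LINC01638, at 1.57, 0.117, 2.39 and 0 FPKM, in the order above. No fold is given for a comparison in which an RNA is listed at 0. The other 66 members were above 0 in every library.

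The first comparison asked in which part of the gradient the LINC RNAs lay in METTL3-WT cells. The ratio was log2 of polysome over sub-polysome, each FPKM plus 0.1, and 1.5-fold was the threshold for calling an RNA higher or lower. At this threshold 59 of 69 members (85.5%) were lower in polysome and 0 were higher, where 19.1% of all 10905 genes were lower and 28.1% were higher. The median log2 ratio of the members was -1.72, with an interquartile range from -2.47 to -0.86, while the median of all genes was 0.14 and that of mRNAs 0.18. Over the 66 members above 0 in every library the median was -1.69, with 56 lower (84.8%) and 0 higher. Under the same filter 19% of all genes were lower and 28.2% higher. Over the 30 members at 1 FPKM or more in every library, which passed through both fractions, the median was -1.23. Of these members 24 were lower (80.0%, against 16.8% of all genes under that filter) and 0 higher (against 28.3%).

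The same comparison in METTL3-K177Q cells gave 62 of 69 members (89.9%) lower in polysome and 2 higher, LINC00294 and LINC02693, where 21.3% of all genes were lower and 30.2% were higher. The median log2 ratio was -1.95, with an interquartile range from -2.53 to -1.11, against 0.16 for all genes. In both genotypes 55 members (79.7%) were at least 1.5-fold lower in polysome, against 15.9% of all genes. A smaller polysome than sub-polysome value in both genotypes was found for 65 members (94.2%), against 36.6% of all genes. Only LINC00294 had the larger value in polysome in both, as 51.1% of all genes did, and its METTL3-WT values were nearly equal (log2 ratio 0.06). At the 1.5-fold threshold 0 members were higher in polysome in both, against 23.2%. With TPM, LINC00526 and LINC01703 also came to lie above 0 in METTL3-K177Q cells, and LINC00294 remained the only member above 0 in both.

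The ratio of the LINC RNAs was set beside that of other lncRNAs of the same table. In METTL3-WT cells the median log2 ratio was -1.55 for 137 antisense lncRNAs, -1.95 for 18 SNHG genes (hosts of snoRNAs) and -1.39 for 181 other lncRNAs. In METTL3-K177Q cells it was -1.94, -2.66 and -1.72. The LINC median lay among these values in either genotype, with the SNHG genes lowest. The shares at least 1.5-fold lower in METTL3-WT cells were 85.4% of antisense lncRNAs, 100% of SNHG genes, 80.1% of other lncRNAs and 16.0% of mRNAs. As reference values for nuclear-retained lncRNAs, NEAT1 was at 16.0, 5.98, 10.1 and 4.53 FPKM and MALAT1 at 1.69, 1.22, 1.06 and 0.968 FPKM in the order of libraries above. The part of nuclear RNA in the lysates was not tested.

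**Figure D2:**
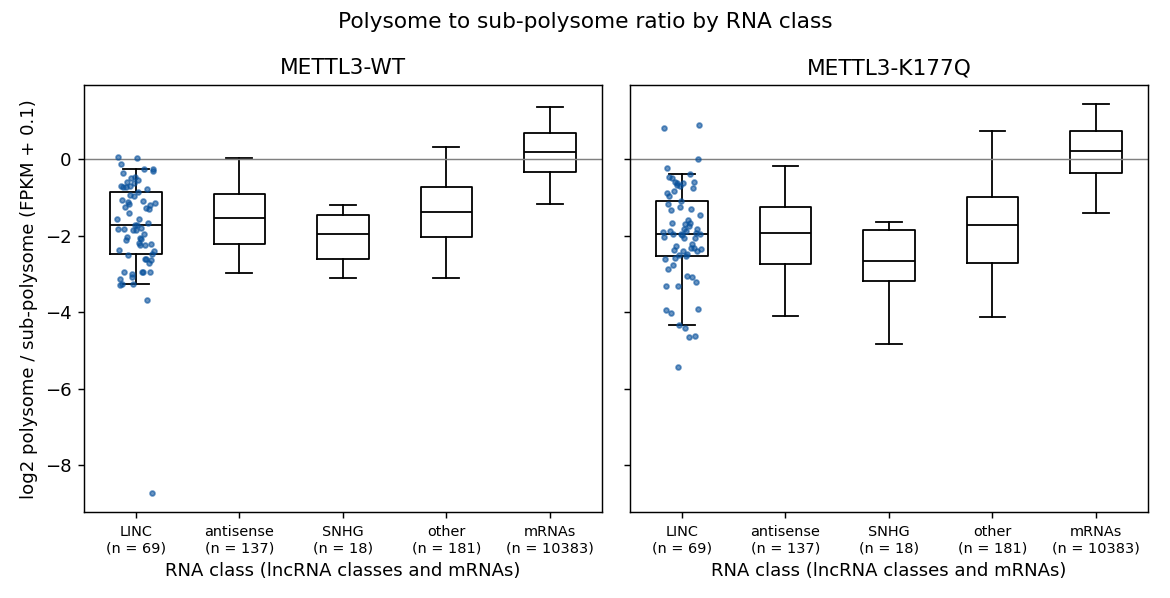
Log2 polysome over sub-polysome ratio (FPKM plus 0.1) by RNA class in METTL3-WT (left) and METTL3-K177Q cells (right); boxes give the median and quartiles, whiskers the 5th and 95th percentiles, and points are the 69 LINC RNAs. The medians and quartiles of all 4 lncRNA classes lie below 0, with LINC medians of -1.72 and -1.95, and mRNA medians are 0.18 and 0.21.

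The members at the top of the range were few. LINC00294, a single-exon RNA on chr11:33076150-33079454 (plus strand), was at 3.06 FPKM in METTL3-WT sub-polysome, 3.19 in METTL3-WT polysome, 2.34 in METTL3-K177Q sub-polysome and 4.21 in METTL3-K177Q polysome. Its log2 polysome to sub-polysome ratio was 0.06 in METTL3-WT and 0.82 in METTL3-K177Q cells. LINC02693 was at 1.40, 1.10, 0.715 and 1.41 FPKM, with log2 ratios of -0.32 and 0.89. The polysome value of LINC02693 was thus the lower of the pair in METTL3-WT and the higher in METTL3-K177Q cells. LINC00526, at 1.41, 1.28, 1.20 and 0.998 FPKM, and LINC01273, at 1.11, 1.14, 1.51 and 0.949 FPKM, were nearly even between fractions in METTL3-WT cells. LINC01006, at 1.64, 1.13, 2.06 and 1.30 FPKM, and LINC00674, at 2.60, 1.54, 2.30 and 1.64 FPKM, completed the highest 6.

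At the other end, beside LINC01088, were RNAs whose polysome values lay far below the sub-polysome values of the same genotype. LINC02303 was at 6.96, 0.975, 8.58 and 0.250 FPKM, LINC00476, antisense to ERCC6L2, at 2.45, 0.159, 2.10 and 0.0429, and LINC00706 at 2.37, 0.222, 2.78 and 0.0771. LINC01444 was at 11.0, 2.32, 13.0 and 0.519 FPKM, and it shares a near-identical sequence with LINC02697. In each of them both polysome values lay below both sub-polysome values.

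LINC00467, also among the lowest 6, is the member for which a small mitochondrial protein is known. It was at 12.2 FPKM in METTL3-WT sub-polysome, 1.29 in METTL3-WT polysome, 12.5 in METTL3-K177Q sub-polysome and 1.17 in METTL3-K177Q polysome. It was 8.85-fold and 9.96-fold lower in polysome in METTL3-WT and METTL3-K177Q cells. Of the 10 LINC symbols listed for known small proteins, 4 were in the table as lncRNA and 2 were members. The other was LINC00665, whose small protein was described in triple-negative breast cancer. It was at 1.71, 0.0902, 3.38 and 0.374 FPKM, again with both polysome values below both sub-polysome values, 9.54-fold and 7.33-fold lower. Its METTL3-WT polysome value lies below the pseudocount, which therefore limits the 9.54-fold. The RNAs of both ORFs printed above thus took a smaller share of the polysome than of the sub-polysome libraries. Of the listed symbols below the minimum, LINC00689 was listed at 0 throughout and LINC00908 was above 0 in METTL3-K177Q sub-polysome alone, at 0.0423 FPKM.

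Sequence features were set beside the ratios, of which transcript length enters the choice of members through FPKM. Members with an ORF of at least 100 codons (21) had a median log2 polysome to sub-polysome ratio of -1.21 in METTL3-WT and -1.92 in METTL3-K177Q cells, and those with shorter ORFs (36) had -2.20 and -2.10. The gap between these sets of members was therefore wide in METTL3-WT and narrow in METTL3-K177Q cells. Across the 57 members, Spearman's rho of the ratio was 0.46 with ORF codons and 0.40 with transcript length in METTL3-WT cells. It was 0.26 and 0.42 in METTL3-K177Q cells. These are across genes of the same libraries, long transcripts tend to hold long ORFs, and genes are not independent replicates. With exon number rho was -0.09 and -0.01. GGACT, a form of the sequence context in which METTL3 places m6A, was searched on the transcript strand and occurred in 43 of 57 members (75.4%), against 75.3% of 231 other lncRNAs with a transcript. Whether any of these sites is methylated was not measured here.

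The second question of the study was what METTL3-K177Q changes in polysome loading. For each gene the log2 polysome to sub-polysome ratio of METTL3-WT cells was subtracted from that of METTL3-K177Q cells, and the difference is called the ratio between genotypes. The study calls the ratio within a genotype translation efficiency, a name not used here for noncoding RNAs. It was at least 1.5-fold lower for 28 members (40.6%) and higher for 10 (14.5%), where 7.03% of all genes were lower and 4.08% were higher. Their median was -0.26, with an interquartile range from -0.75 to 0.18, against -0.01 for all genes. When every library was rescaled to the same FPKM total (TPM), 17 members (24.6%) were lower and 12 (17.4%) higher and the median turned to 0.037, while the median of all genes rose to 0.29, with 2.65% lower and 18.2% higher. The members' share of higher calls was thus above that of all genes as deposited and close to it with TPM, while their share of lower calls was above it with either. Relative to the median of all genes the members' median was -0.25 with either scaling, and 19 members changed sign, none of them beyond -0.29 as deposited.

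These counts rest in part on low values. Over the 66 members above 0 in every library, 26 (39.4%) were lower and 9 (13.6%) higher, since LINC02585, LINC01063 and LINC01638 drop out, against 6.90% and 4.00% of all genes under the same filter. Over the 30 members at 1 FPKM or more in every library, 9 (30.0%) were lower and 1 (3.33%) was higher, against 5.49% and 2.82% of all genes under that filter, and the median was -0.25. An approximate depth of 2.44e+07 to 2.86e+07 fragments per library gives a counting error for the 57 members with a transcript length. This depth was taken from the most common low value of FPKM times transcript length. The median standard error of the log2 ratio between genotypes was 0.41. This covers counting error only. By more than 2 such errors, 16 of the 57 lay below 0 and 7 above, LINC02585 among the 7. No such count was made for all genes.

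Other lncRNA classes were set beside the members. The median ratio between genotypes was -0.27 for antisense lncRNAs, with 48 of 137 lower and 17 higher, and -0.42 for other lncRNAs, with 71 of 181 lower and 21 higher. For SNHG genes it was -0.66, with 10 of 18 lower and 0 higher. For mRNAs 5.59% were lower and 3.73% were higher. Whether LINC RNAs differ from these classes was not tested.

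The members with the lowest ratio between genotypes, among those above 0 in every library, were described by fraction. LINC01444 had 2.32 FPKM in METTL3-WT polysome and 0.519 in METTL3-K177Q polysome, while its sub-polysome values were 11.0 and 13.0 FPKM. Its log2 ratio between genotypes was -2.22, a 4.65-fold decrease, with a counting error of 0.49. LINC02303 behaved alike, with polysome values of 0.975 and 0.250 FPKM in METTL3-WT and METTL3-K177Q cells, sub-polysome values of 6.96 and 8.58 FPKM and a ratio of -1.92 (counting error 0.78). In both RNAs the polysome fraction differed more between genotypes than the sub-polysome fraction. LINC02783 differed in the other fraction, with 1.76 FPKM in METTL3-WT sub-polysome and 4.20 in METTL3-K177Q sub-polysome, against 1.47 and 1.01 in polysome, and a ratio of -1.71. LINC00963 was at 1.10 and 2.13 FPKM in sub-polysome and 0.636 and 0.366 in polysome, with a ratio of -1.55. LINC02609 was at 4.88 and 6.93 FPKM in sub-polysome and 0.799 and 0.367 in polysome, with a ratio of -1.44. In LINC00963 and LINC02609 sub-polysome was higher and polysome lower in METTL3-K177Q cells, between single libraries.

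Among the abundant members, LINC01088 and LINC01278 were at least 1.5-fold lower, with log2 ratios of -1.07 and -0.68 and counting errors of 0.21 and 0.10. The shift of 0.30 that TPM brings to this ratio takes LINC01278 inside 1.5-fold and leaves LINC01088 beyond it. LINC01023, LINC00339, LINC01116, LINC01003 and LINC00888 stayed within 1.5-fold, with ratios of -0.24, -0.23, -0.27, 0.28 and 0.13. The first 3 of these lie in the range whose sign turns with TPM.

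Among members above 0 in every library, the 5 with the highest ratio between genotypes had means below 3 FPKM. LINC02018 was at 2.76 FPKM in METTL3-WT sub-polysome, 0.121 in METTL3-WT polysome, 1.37 in METTL3-K177Q sub-polysome and 0.776 in METTL3-K177Q polysome, a log2 ratio between genotypes of 2.95. LINC01703, near the histone gene H3-3A, was at 3.91, 0.941, 3.19 and 2.43 FPKM, with a ratio of 1.57 (counting error 0.38). For both RNAs polysome was higher and sub-polysome lower in METTL3-K177Q cells, and the METTL3-WT polysome value of LINC02018 was close to the pseudocount. LINC01637 was at 3.52, 0.365, 3.10 and 0.957 FPKM, with a ratio of 1.37, and LINC01806 at 2.77, 0.368, 1.89 and 0.700, with 1.30. LINC02693, described above, had a ratio of 1.21. These RNAs shared the direction of both fractions with LINC02018.

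Each fraction was then compared between genotypes on its own. Within polysome the METTL3-K177Q value was lower by at least 1.5-fold for 16 members and higher for 9, where 3.13% of all genes were lower and 2.13% were higher, and the median was -0.21. With a pseudocount of 1 FPKM the counts were 3 lower and 3 higher (all genes 1.34% and 0.899%). At 2-fold they turned to 3 lower and 6 higher (0.890% and 0.486%). At the other settings more members were lower than higher, as with TPM, with 13 lower and 9 higher (2.22% and 3.33%). Over the members at 1 FPKM or more in every library 2 were lower and 0 higher (1.83% and 1.29%). Within sub-polysome 13 were higher and 5 lower, where 4.01% of all genes were higher and 2.94% were lower, and the median was 0.25. With TPM the sub-polysome counts became 6 higher and 8 lower and its median 0.042, while 1.82% of all genes were higher and 9.59% lower, around a median of -0.21. For any size of change, 31 members (44.9%) had more sub-polysome and less polysome FPKM in METTL3-K177Q than in METTL3-WT cells, against 23.9% of all genes, and 11 (15.9%) had the opposite, against 20.8%. Both fractions were higher for 13 members (18.8%, against 25.5% of all genes) and both lower for 12 (17.4%, against 29.8%). Of the 28 members with a lower ratio, 25 had more sub-polysome and less polysome FPKM (89.3%, against 81.1% of all genes with a lower ratio). Polysome was lower by at least 1.5-fold in 13 of the 28 (46.4%, against 31.3%), and sub-polysome higher by that much in 10 (35.7%, against 30.1%). The comparisons of the fractions use the same libraries as the ratio and are parts of it.

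**Figure D3:**
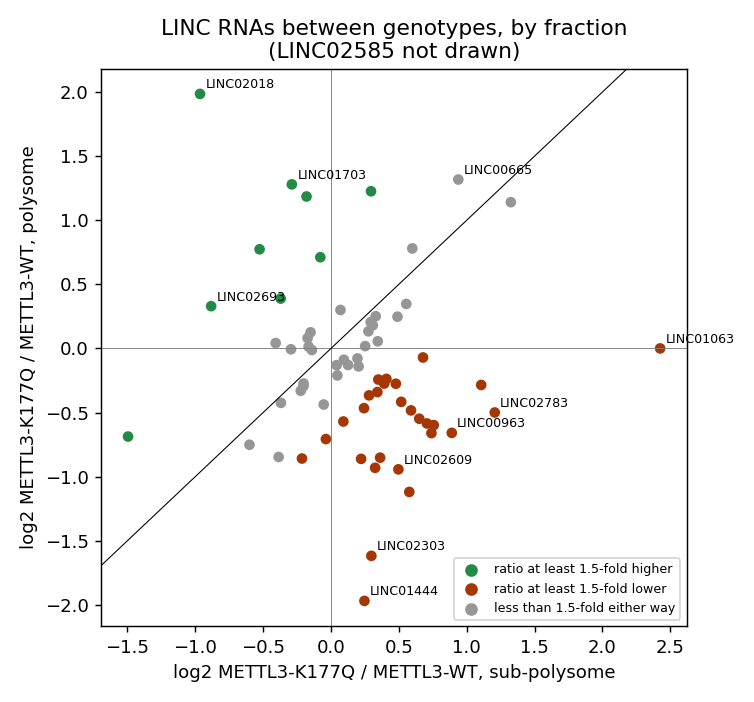
Log2 METTL3-K177Q over METTL3-WT in sub-polysome (x axis) and polysome (y axis) for 68 LINC RNAs, coloured by whether the ratio between genotypes passed 1.5-fold; LINC02585 is not drawn. Members with a lower ratio gather in the lower right, where sub-polysome is higher and polysome lower, as for LINC02609 and LINC02783.

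Position beside coding genes was set against the ratio between genotypes. Of the 12 members that overlap a protein-coding gene interval, 7 were at least 1.5-fold lower and 0 higher, with a median of -0.65, and of the 57 others 21 were lower and 10 higher, with a median of -0.23. Of all genes, not split in this way, 7.03% were lower and 4.08% higher. In METTL3-WT cells their median log2 polysome to sub-polysome ratios were -1.28 and -1.83, and in METTL3-K177Q cells -1.96 and -1.92. The members that overlap coding genes were thus the less depleted from polysomes in METTL3-WT cells and level with the others in METTL3-K177Q cells. Reads of overlapping genes on the same strand can be shared, and their part in the result was not tested. By ORF length, the median ratio between genotypes was -0.27 for members with at least 100 codons and -0.24 for the rest. Across the 57 members with a matched transcript, Spearman's rho of this ratio was 0.04 with ORF codons and 0.38 with transcript length. It was 0.10 with exon number and -0.25 with GC percent.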

How the data were processed

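RNA-seq of sub-polysome and polysome fractions was analysed in 4 libraries, 1 per genotype and fraction. The authors deposited gene-level FPKM, with no counts. The submitters' processing notes name STAR 2.7 and StringTie 2.1.5 and the build hg38, and the annotation version is not given in the sources used here. Another 4 columns of per-sample values, whose names carry the number 1 in place of 2 for each condition, matched no listed sample and were not used, so a second replicate was not analysed here. FPKM were taken as deposited. A pseudocount of 0.1 was added before log2 ratios, genes below a mean of 1 FPKM were dropped, and calls were made at 1.5-fold. With 1 library per group no test was made. Alternatives were a pseudocount of 1, no minimum or a minimum of 5 FPKM, TPM, median-of-ratios size factors, a 2-fold threshold, members above 0 in every library and, chosen after seeing the data, members at 1 FPKM or more in every library. Loci came from RefSeq (GRCh38.p14, 96.1% of table symbols current) and transcripts from GENCODE 44, the transcript whose ends lay within 1000 bases in all of the RefSeq gene. Copies were sought with minimap2 2.31 (95% identity over 50% of the transcript). Approximate depth was taken from the most common low value of FPKM times length, read as 1 fragment. That value was sought in a range set in advance, which bounds the depth it can give. The depth came to 2.7e+07, 2.56e+07, 2.44e+07 and 2.86e+07 fragments for METTL3-WT sub-polysome and polysome and METTL3-K177Q sub-polysome and polysome. The computation was done in Python 3.11.15 with pandas 2.3.3 and numpy 2.4.6. Its code was tried on simulated data, and the settings and outcome of that trial are not given here. No error rate for the calls, at low FPKM or otherwise, is drawn from that trial. Genes were named by rule: the 8 most abundant members, the 6 highest and 6 lowest polysome to sub-polysome ratios, the 5 highest and 5 lowest ratios between genotypes (both among members above 0 in every library), members listed at 0, the 3 genes on either side of the minimum and the small-protein list. The members and lists were chosen with earlier results of these data known. One marker gene is not reported here.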

Additional observations from a re-analysis of the deposited data

Results flagged for a closer look

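In LINC01273 and LINC02693 the polysome value lay on opposite sides of the sub-polysome value in the 2 genotypes, which 12.3% of all genes also showed. For LINC01273 the log2 polysome to sub-polysome ratio was 0.03 in METTL3-WT and -0.62 in METTL3-K177Q cells, a difference of -0.65 with an approximate counting error of 0.57. For LINC02693 it was -0.32 and 0.89, a difference of 1.21 with an approximate counting error of 0.19. Neither difference was tested, since each rests on 1 library per group.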

How the results depend on the processing

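The alternatives gave 115 values beside those reported, of which 61 held, 53 moved and 1 reversed. A median held when it stayed in an interval drawn from the ranked values of the members, and reversed when its sign changed. A count held when it changed by at most 1.5-fold, and a count of 0 when it was unchanged. Counts were not scaled to the number of members, so those over 417, 15 or 30 members can move through that number alone. The labels therefore do not measure how stable the results are. With a pseudocount of 1 FPKM the median polysome to sub-polysome log2 ratio was -1.10 in METTL3-WT and -1.20 in METTL3-K177Q cells, and 1 member was higher in the latter (all genes 26.0%). The ratio between genotypes was lower for 17 (24.6%, against 4.76% of all genes), and 3 were higher and 3 lower within polysome (all genes 0.899% and 1.34%) and 5 and 3 within sub-polysome (2.58% and 0.917%). With no minimum, over 417 LINC genes, the medians were -0.59 and -0.60, with 33 higher and 210 lower in METTL3-WT (all genes 22.5% and 20.5%) and 36 and 210 in METTL3-K177Q cells (24.4% and 22.3%). The ratio between genotypes then had a median of -0.11, with 101 higher (24.2%) and 134 lower (32.1%), against 10.4% and 12.2% of all genes, and there were 53 and 64 within polysome (5.49% and 6.75%) and 96 and 81 within sub-polysome (8.05% and 7.68%), where the median was 0. With a minimum of 5 FPKM, over 15 members, the medians were -2.19 and -2.40, with 15 lower in METTL3-WT (all genes 17.1%) and 0 higher and 14 lower in METTL3-K177Q cells (32.3% and 20.5%). The ratio between genotypes was then higher for 1 (6.67%) and lower for 5 (33.3%), against 1.22% and 5.69% of all genes, with 0 and 2 within polysome (0.985% and 1.73%) and 1 and 1 within sub-polysome (2.55% and 1.03%). Over the 30 members at 1 FPKM or more in every library, a filter chosen after seeing the data, 24 were lower in METTL3-WT (all genes 16.8%) and 1 higher and 27 lower in METTL3-K177Q cells (30.3% and 19.1%), the ratio between genotypes was higher for 1 and lower for 9 (2.82% and 5.49%), and 0 and 2 were so within polysome (1.29% and 1.83%) and 3 and 0 within sub-polysome (2.94% and 1.96%). Under the last 2 filters fewer genes enter. With TPM the median was -1.55 in METTL3-K177Q cells, the median ratio between genotypes turned to 0.037 with 17 lower, and within sub-polysome the median was 0.042 with 6 higher and 8 lower. TPM shifts every ratio between genotypes by 0.30 before the pseudocount, as the library sums differ. At 2-fold, 0 members were higher in METTL3-K177Q cells (all genes 14.3%), the ratio between genotypes was higher for 6 and lower for 16 (0.770% and 1.90%), 6 were higher and 3 lower within polysome (0.486% and 0.890%), and 4 were higher and 2 lower within sub-polysome (0.954% and 0.495%). Size factors and leaving out the members listed at 0 moved no value past these limits.

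No paired analysis was possible because each condition had 1 library, and for the same reason no replicate was left out. The spread between replicates was not analysed here. The approximate counting errors leave that spread out, and they rest on GENCODE 44 lengths that may differ from those behind the deposited values. For the 12 members without a matched transcript no counting error was computed.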
